A study of Drosophila melanogaster with 12 samples.

Results

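The genes described here lie in the last 1 Mb of the left arm of the *Drosophila* second chromosome (2L) before the centromere, in dm3 coordinates. A gene was a member when its midpoint lay above position 22009171, which is 1000000 bp below the largest gene end listed on 2L (23009171), and when its symbol was not one of a ribosomal protein gene, snoRNA, microRNA, or unnamed CR transcript. Of the 15998 genes listed, 54 lay in this window, 7 of these were left out by symbol, and 47 remained. Sense levels are given in CPM, the sense reads of a gene divided by the normalized library total, scaled to 1000000. The filter for membership used the library total before normalization. By it, 28 of the 47 reached 1 CPM in at least 2 of the 8 libraries, and these 28 are the members among the 9612 genes tested. The other 19 had between 0 and 18 sense counts over the 8 libraries together, and 5 of them had 0.

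Nascent RNA, the RNA still attached to RNA polymerase II (Pol II) after chromatin is washed with urea, was sequenced with strand information from 4 cell lines, with 2 libraries per line. G3, A7, and B2 are *upSET* mutant S2 lines, and the reference is the unedited S2-DRSC parent, a male, highly polyploid, hemocyte-like embryonic line. G3 carries a 67 bp deletion that removes the start codon, A7 carries a pair of 7 bp deletions that shift the frame after at most 3 residues, and B2 carries a 1 bp deletion that shifts it after 367 residues. Each mutant line grew from a single sorted cell, so an effect of the mutation and a feature of the clone cannot be told apart with 1 clone per lesion. The sources do not say whether the 2 libraries of a line came from separate cultures, so the p-values measure the spread between these libraries, which may be technical.

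The DNA next to fly centromeres is packaged as heterochromatin, in which histone H3 is methylated at lysine 9 and bound by the protein HP1a. Genes in this packaging can still be transcribed, and some, such as *light* (*lt*) and *concertina* (*cta*) on 2L, are known from fly genetics to need a heterochromatic neighbourhood for normal expression. UpSET is the fly homolog of yeast Set3 and mammalian MLL5, and the question that the comparison addresses is how transcription of genes near heterochromatin changes when it is mutated.

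Sense counts per library lay between 4738785 and 10902304. With these totals, before normalization, 3 counts correspond to between 0.275 and 0.633 CPM, which allows for counting error alone. The edited gene, listed as *CG9007*, had 464 and 461 CPM in G3, 761 and 606 in A7, 665 and 680 in B2, and 544 and 567 in S2. It was not called in any line, and since the lesions are far shorter than the gene, its level does not check the labels. The 9 hemocyte markers listed summed to between 1864 and 2791 CPM in the mutant libraries and between 2056 and 2240 CPM in the S2 libraries. Of the 8 that were tested, 2 were called higher in G3 (the collagen IV genes *Cg25C* and *vkg*) and 0 lower, 1 higher and 1 lower in A7, and 0 in B2 (with the replicate number in the model, G3 had 2 higher and 1 lower, A7 3 higher and 2 lower, and B2 1 higher and 0 lower). Muscle markers summed to between 0.388 and 2.46 CPM in the mutant libraries and between 0.706 and 4.74 CPM in the S2 libraries, and neuron markers to between 50.1 and 71.1 CPM in the mutant libraries and between 58.4 and 72.8 CPM in the S2 libraries, most of it *elav*. The ovarian somatic markers summed to between 6021 and 14200 CPM in the mutant libraries and between 5727 and 6301 CPM in the S2 libraries, nearly all of it *zfh1*. The part of such differences between the clones in the values of the members was not tested.

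Together the 28 members held between 0.321% and 0.432% of a library's sense counts. Their summed level was 3616 and 3385 CPM in G3, 4041 and 4056 in A7, 4144 and 4208 in B2, and 3641 and 3511 in S2. Both A7 and both B2 libraries were above both S2 libraries in this sum, whereas the G3 libraries overlapped them. In such bulk libraries, fewer cells that transcribe a gene and less RNA per cell cannot be told apart. One gene, *CG17018*, made up a large share of it. Without this gene, the sum was 2096 and 2067 CPM in G3, 2552 and 2606 in A7, 2452 and 2588 in B2, and 2313 and 2385 in S2, and both G3 libraries were then below both S2 libraries.

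Ranked by mean CPM per kb of listed extent over the 8 libraries, the most strongly transcribed member was *cta*, which encodes the G protein alpha subunit that drives cell shape change at gastrulation, with 34.3 CPM per kb. It was followed by *CycK*, cyclin K, the partner of the kinase Cdk12 that phosphorylates the tail of Pol II, with 32.6 CPM per kb, and by *Tif-IA*, an initiation factor of RNA polymerase I, with 28.6 CPM per kb. *CG1832*, named *Clamp* in RefSeq, encodes the zinc finger protein that binds GA repeats and helps recruit the dosage compensation complex to the X chromosome, and had 28.2 CPM per kb. *CG17490* came next, with 27.95 CPM per kb. The per-library ranges of these 5 genes overlapped, so their order was not resolved. *lt*, which encodes the Vps41 subunit of the HOPS complex for vesicle fusion at lysosomes and pigment granules, had 12.3 CPM per kb. Its neighbours in the order, *CG3651* and *CG34137*, had 15.4 and 11.9 CPM per kb, with ranges over the libraries that overlapped its own. Within each of the 8 libraries *CG3651* was above *lt*, whereas *CG34137* was above it in some and below it in others.

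The lower end of this order held genes with few reads for their length. *Ir40a*, an ionotropic receptor of humidity-sensing antennal neurons, had 0.171 CPM per kb, *CG40006*, the longest member with 133933 bp, had 0.162 CPM per kb, and *tio*, the transcription factor gene *tiptop*, had 0.0666 CPM per kb. *tio* had 0 counts in B2 replicate 1 and S2 replicate 2, and its highest level was 2.27 CPM, in A7 replicate 1. These levels are per base of the listed extent, introns included, and whether intron reads were counted is not stated.

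**Figure D1:**
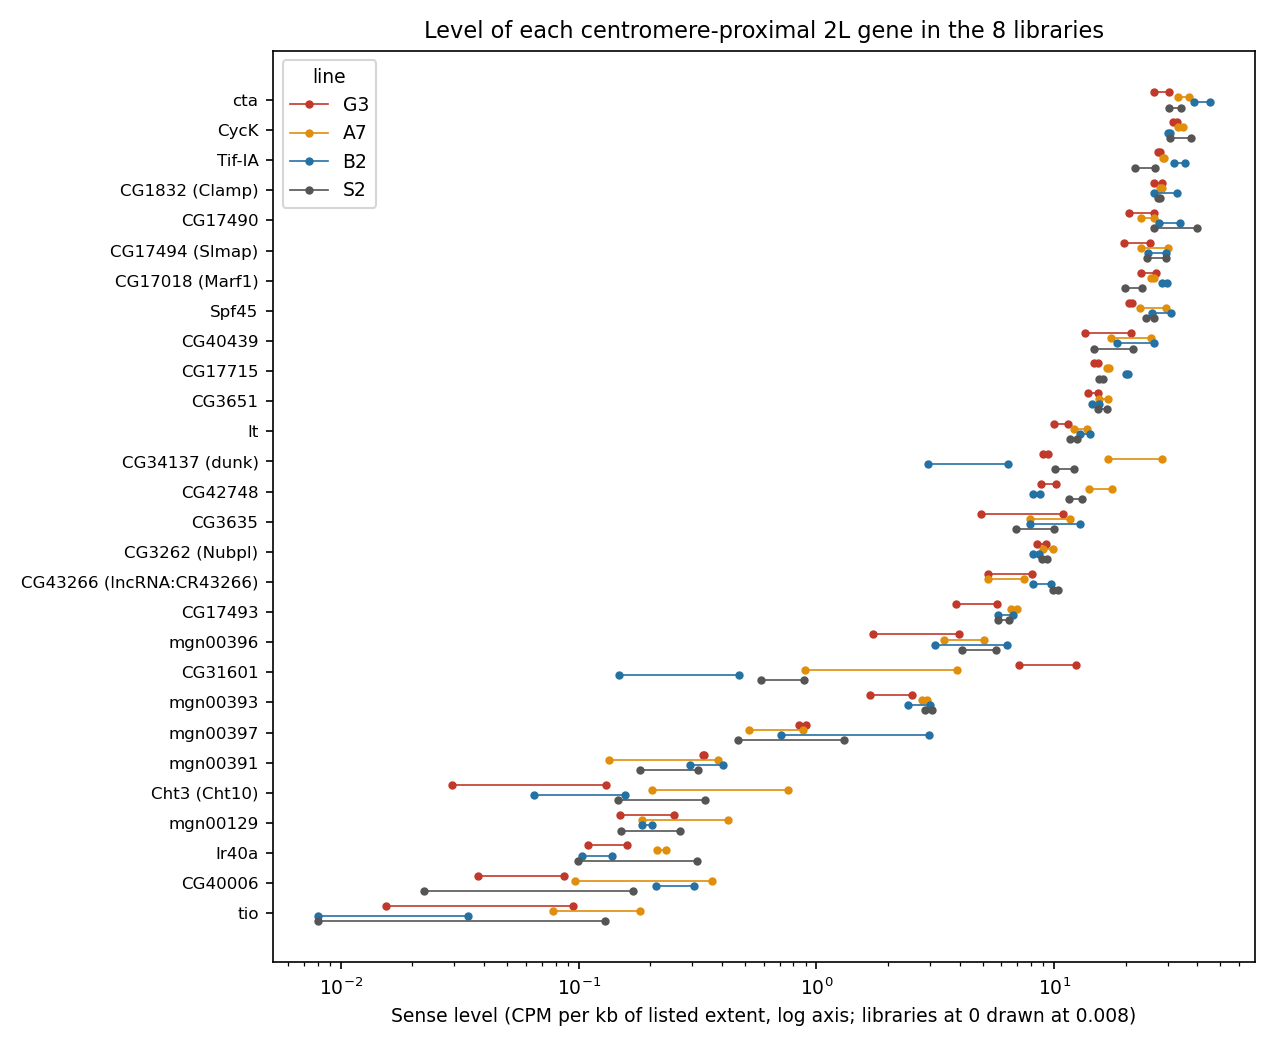
Sense level of the 28 members in the 8 libraries, as CPM per kb of listed extent on a log axis. Each gene has a line for each cell line that joins its 2 libraries, and genes are ordered by their mean. *cta*, *CycK*, and *Tif-IA* are at the top with means between 28.6 and 34.3 CPM per kb, *tio* is at the bottom, and the S2 line of *CG31601* lies well below its G3 line.

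Several members share sequence extents with another listed gene. *CG34137* lies within *CG42748*, *CG17493* within *mgn00393*, and *mgn00129* within *Ir40a*, and *mgn00396* overlaps *Cht3*. *CG3262* overlaps the ribosomal protein gene *RpL21*, *tio* overlaps *CR33987*, and *CG40006* overlaps *mgn00131*. The sources do not say how reads in shared extents were assigned, so the values of these genes may not be independent.

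No member was called changed against S2 in any line in edgeR's quasi-likelihood test with Benjamini-Hochberg adjustment over all 9612 genes. In G3, 0 of 28 members had an adjusted p under 0.05, where 0.603% of all genes did, and 2 members had an unadjusted p under 0.05, where 11.1% of all genes did. In A7, 0 were called, where 0.375% of all genes were, and 1 had an unadjusted p under 0.05, where 8.75% of all genes did. In B2, 0 were called, where 0.0104% of all genes were, and 6 had an unadjusted p under 0.05, where 3.25% of all genes did. DESeq2 called 1 member in G3 (*CG31601*), where it called 2.37% of the genes it tested, and 0 in A7 and B2, where it called 1.86% and 0.395%. The mean of the 3 mutant lines against S2 also gave 0 calls, where 0.156% of all genes were called, with 2 members at an unadjusted p under 0.05 (*CG17018* and *Tif-IA*), where 7.84% of all genes were.

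The same-numbered libraries of different lines deviated together, and the model that adds the replicate number (the block) therefore gave different counts. With the block, 2 members were called in G3, where 5.87% of all genes were called (3.14% higher and 2.73% lower), 1 in A7, where 3.67% were (2.67% higher), and 0 in B2, where 0.427% were, with 6 members at an unadjusted p under 0.05 (9.82% of all genes). The calls were *CG31601*, higher in G3, *mgn00396*, lower in G3, and *CG34137*, higher in A7. The mean of the 3 lines gave 0 calls with the block, where 1.99% of all genes were called, with 5 members at an unadjusted p under 0.05 (18.5% of all genes). DESeq2 with the block called 2 members in G3 (*CG31601* and *mgn00396*), where 6.3% of genes were called, 0 in A7, where 4.18% were, 3 in B2 (*CG17018*, *CG42748*, and *Tif-IA*), where 0.899% were, and 1 in the mean of the lines (*CG17018*), where 2.89% were. The shares of members that edgeR called with the block in G3 and A7, 7.14% and 3.57%, were close to the 5.87% and 3.67% of all genes.

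The direction of the members against S2 differed by line. The log2 fold change (log2FC) against S2 was above 0 for 4 of 28 members in G3, 21 of 28 in A7, and 14 of 28 in B2. Of all genes tested, 42.7% were above 0 for G3, 43.8% for A7, and 45.3% for B2. The median log2FC of the members was −0.18 for G3, 0.11 for A7, and −0.02 for B2, against −0.06, −0.05, and −0.03 over all genes tested. The 3 comparisons share the same 2 S2 libraries, so they are not independent of each other. These counts are a description of the members, with no test over the list.

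Library by library, the members of G3 were mostly on the low side. In G3, 11 members had both libraries below both S2 libraries, where 21.1% of all genes did, and 3 had both above, where 17.1% did. In A7, 7 members had both libraries above, where 16.7% of all genes did, and 2 had both below, where 19.5% did. In B2, 6 were above and 6 below, where 13.1% and 13.3% of all genes were. Between same-numbered libraries, G3 was below S2 in both pairs for 15 members, where 33.8% of all genes were, and above in both for 4, where 27.7% were. A7 was below in both for 4 and above in both for 14, where 33.7% and 27.9% of all genes were, and B2 was below in both for 8 and above in both for 12, where 29.3% and 27.0% were.

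Within a line, the 2 libraries differed by a median of 0.28 on the log2 scale over the members in G3, 0.34 in A7, 0.28 in B2, and 0.27 in S2, each with a pseudocount of 0.5 CPM. The signed difference, replicate 2 minus replicate 1, had a median over the members of −0.03 in G3, 0.04 in A7, −0.0030 in B2, and −0.07 in S2. More than a 2-fold difference between the 2 libraries was seen for 5 members in G3, where 9.56% of all genes had one, 3 in A7, where 8.07% did, 4 in B2, where 11.7% did, and 5 in S2, where 16.2% did.

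**Figure D2:**
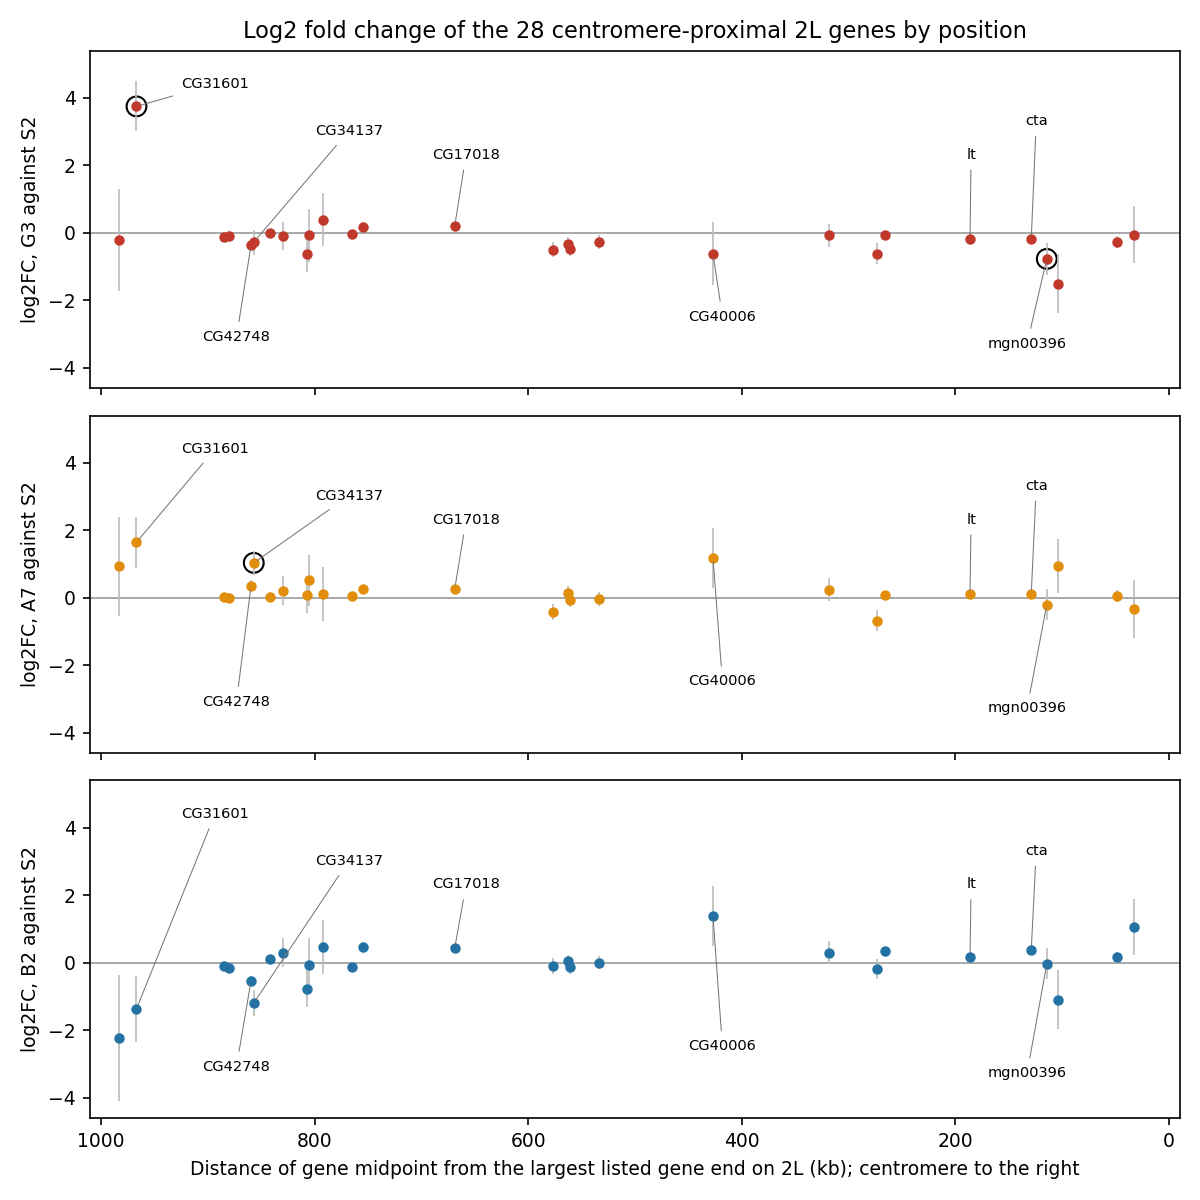
Log2FC of the 28 members against S2 in G3, A7, and B2, by the distance of the gene midpoint from the largest listed gene end on 2L in kb, with the centromere to the right. Points are the fitted values without the replicate block, bars are 1 SE, and black rings mark genes called with the block. In G3, all 10 members within 0.5 Mb of the end are below 0, and *CG31601*, near the left edge, is the one point above 3.

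The direction was also counted by distance from the end of the window. In the last 0.5 Mb, which holds 10 members, 0 of 10 were above 0 in G3, 7 of 10 in A7, and 7 of 10 in B2, and the median log2FC was −0.23, 0.10, and 0.23. Among the 18 members between 0.5 and 1 Mb from the end, 4 were above 0 for G3, 14 for A7, and 7 for B2, and the median log2FC was −0.11, 0.13, and −0.10. With the block, the medians of the nearest 10 were −0.23, 0.09, and 0.23. Whether the nearer and the farther members differ was not tested.

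Other regions were set beside the members, and in these no gene was left out by symbol. The rest of 2L includes the adjacent Mb. In the adjacent Mb of 2L, with 67 genes, the median log2FC was −0.18 for G3, 0.00 for A7, and −0.04 for B2, and in the rest of 2L, with 1657 genes, it was −0.09, 0.01, and −0.07. The 6 genes tested on the heterochromatic arm 2LHet had a median of −0.24 for G3, 0.21 for A7, and 0.03 for B2, with 1, 6, and 3 of the 6 above 0. The last 1 Mb of 3L next to the centromere, with 12 genes, had medians of 0.43, 0.23, and 0.20, the last 1 Mb of X, with 32 genes, 0.08, 0.10, and 0.09, and the first 1 Mb of 3R, with 73 genes, −0.13, −0.13, and −0.06. The order of the lines in the members, with G3 lowest and A7 highest, was also that of the adjacent Mb of 2L, the rest of 2L, 2LHet, and, without the block, the window of X. The window of 3L had G3 highest. No difference between regions was tested.

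**Figure D3:**
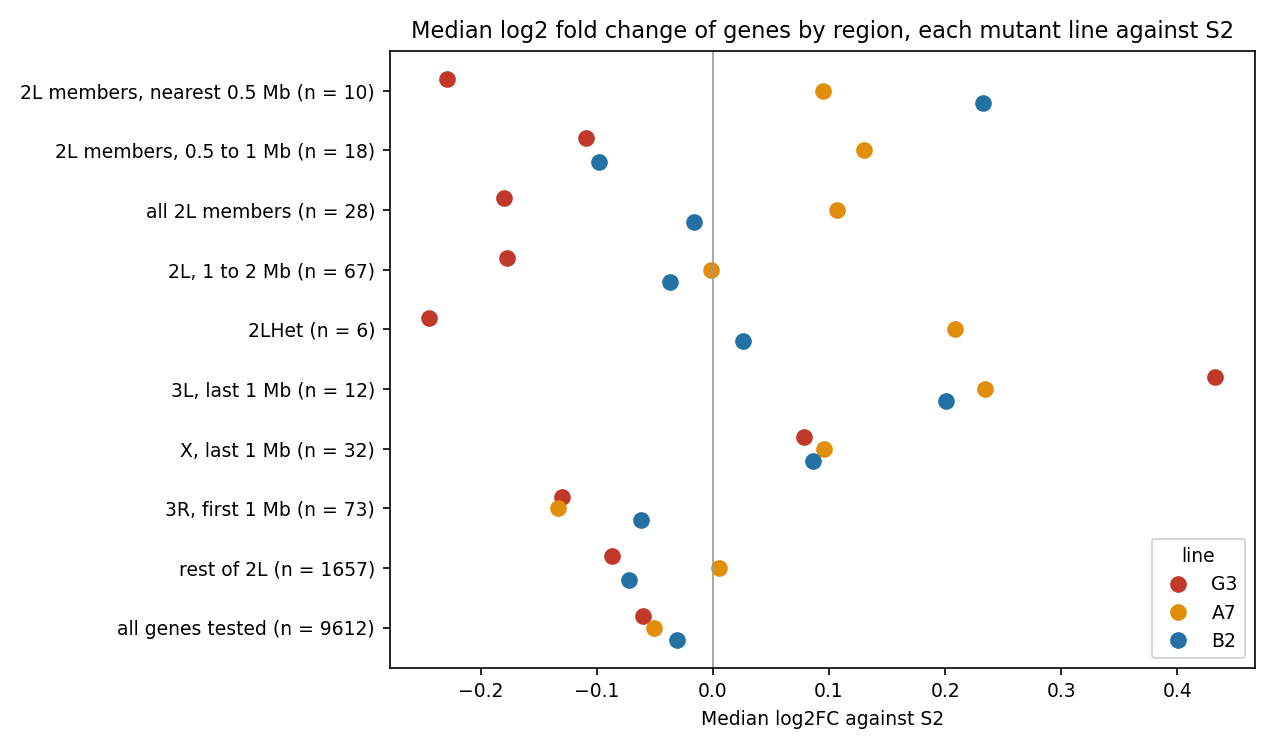
Median log2FC against S2 for the 2L members, as a whole and split by distance, and for the regions they are set beside. Each point is the median over the genes of a region in G3, A7, or B2, without the replicate block, and n is the number of genes. For the 10 members nearest to the centromere the G3 point is at −0.23 and the B2 point at 0.23, whereas all 3 points of the rest of 2L lie between −0.09 and 0.01.

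*CG31601*, listed from 22040727 to 22043901, had the largest log2FC of the members in G3. It had 39.2 and 22.5 CPM in G3, 2.83 and 12.4 in A7, 0.472 and 1.499 in B2, and 1.86 and 2.82 in S2, where the B2 values rest on 4 and 7 counts. Both G3 libraries were above all 6 others, and both B2 libraries were below both S2 libraries. The fitted log2FC in G3 was 3.75 ± 0.74 (SE, n = 2 libraries per line, edgeR adjusted p = 0.113), which is 13.5-fold, and 3.83 ± 0.62 with the block (adjusted p = 0.0105). With the block and 1 library left out at a time, it was called in 7 of 8 fits and not without S2 replicate 1 (adjusted p = 0.0886). In A7 it was 1.65 ± 0.76 (adjusted p = 0.616), and replicate 2 of A7 was above its replicate 1 by 1.95 on the log2 scale. Between mutant lines, it was higher in G3 than in B2 with the block, with a log2 difference of 5.21 ± 0.74 (edgeR adjusted p = 0.00850), but not without it (edgeR adjusted p = 0.0952). With the block this call was lost without B2 replicate 1 or B2 replicate 2, with adjusted p up to 0.182. DESeq2 without the block called *CG31601* higher in G3 than in S2 (adjusted p = 2.63e-05), in G3 than in B2 (adjusted p = 9.04e-08), and in A7 than in B2 (adjusted p = 0.0120). The edgeR fit with no filter beyond 1 count made the same 3 calls (adjusted p = 0.00148, 0.00041, and 0.0386), where 1.15%, 0.738%, and 1.12% of the 14902 genes in that fit were called. The 2 nearest candidates on either side that did not pass, *CG41434* and *CG34173*, had 18 and 0 sense counts over all 8 libraries.

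*CG42748*, listed from 22134251 to 22164838, and *CG34137*, which lies inside it from 22151623 to 22152640, had the same order of lines. *CG34137* is named *dunk* in RefSeq and encodes a protein that keeps myosin at the cell cortex when the fly embryo forms its first cells. *CG42748* had 312 and 270 CPM in G3, 535 and 427 in A7, 250 and 266 in B2, and 400 and 352 in S2. The A7 libraries were above both S2 libraries, and the G3 and B2 libraries were below both. *CG34137* had 9.54 and 9.13 CPM in G3, 28.9 and 17.1 in A7, 6.49 and 3.00 in B2, and 12.3 and 10.2 in S2, with the same separation.

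Against S2, the log2FC of *CG42748* was −0.37 ± 0.16 in G3 (edgeR adjusted p = 0.448), 0.36 ± 0.16 in A7 (adjusted p = 0.590), and −0.54 ± 0.16 in B2 (adjusted p = 0.999), and edgeR called none with the block either (adjusted p = 0.111, 0.154, and 0.176). DESeq2 with the block called it lower in B2 (log2FC −0.52, adjusted p = 0.0432). That of *CG34137* was −0.27 ± 0.37 for G3, 1.04 ± 0.36 for A7, and −1.19 ± 0.39 for B2 (adjusted p = 0.855, 0.454, and 0.999). With the block, the A7 value of *CG34137* was 1.02 ± 0.22 and passed the test (adjusted p = 0.0428), but it did so in only 2 of 8 fits with 1 library left out, those without a G3 library.

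Most calls of this pair of genes were between mutant lines. With the block, *CG34137* was higher in A7 than in B2 by 2.23 ± 0.25 on the log2 scale (edgeR adjusted p = 0.00246), which is 4.70-fold, and *CG42748* by 0.89 ± 0.12 (adjusted p = 0.00529), which is 1.85-fold. The call of *CG34137* was made in all 8 fits with 1 library left out, with adjusted p between 0.00128 and 0.0452, and that of *CG42748* in 7, all but the one without B2 replicate 1 (adjusted p = 0.102). Both genes were lower in G3 than in A7 with the block, with a log2 difference of −1.31 ± 0.23 for *CG34137* (adjusted p = 0.0234) and −0.72 ± 0.12 for *CG42748* (adjusted p = 0.0182). These calls were lost without G3 replicate 1 or A7 replicate 1 for *CG34137*, and without either G3 library or A7 replicate 1 for *CG42748*, with adjusted p of at most 0.193 and 0.0893. Without the block, the edgeR adjusted p was 0.102 for both genes between A7 and B2, and 0.415 and 0.248 between G3 and A7. DESeq2 without the block called both genes higher in A7 than in B2 (adjusted p = 0.000391 for *CG34137* and 0.000425 for *CG42748*), and *CG42748* lower in G3 than in A7 (adjusted p = 0.0261). With no filter beyond 1 count, edgeR also called both between A7 and B2 (adjusted p = 0.0025 and 0.0155). Reads antisense to *CG42748* numbered 204 and 128 in B2, 688 and 434 in A7, 462 and 212 in G3, and 563 and 306 in S2, so that B2 had the fewest on this strand too.

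**Figure D4:**
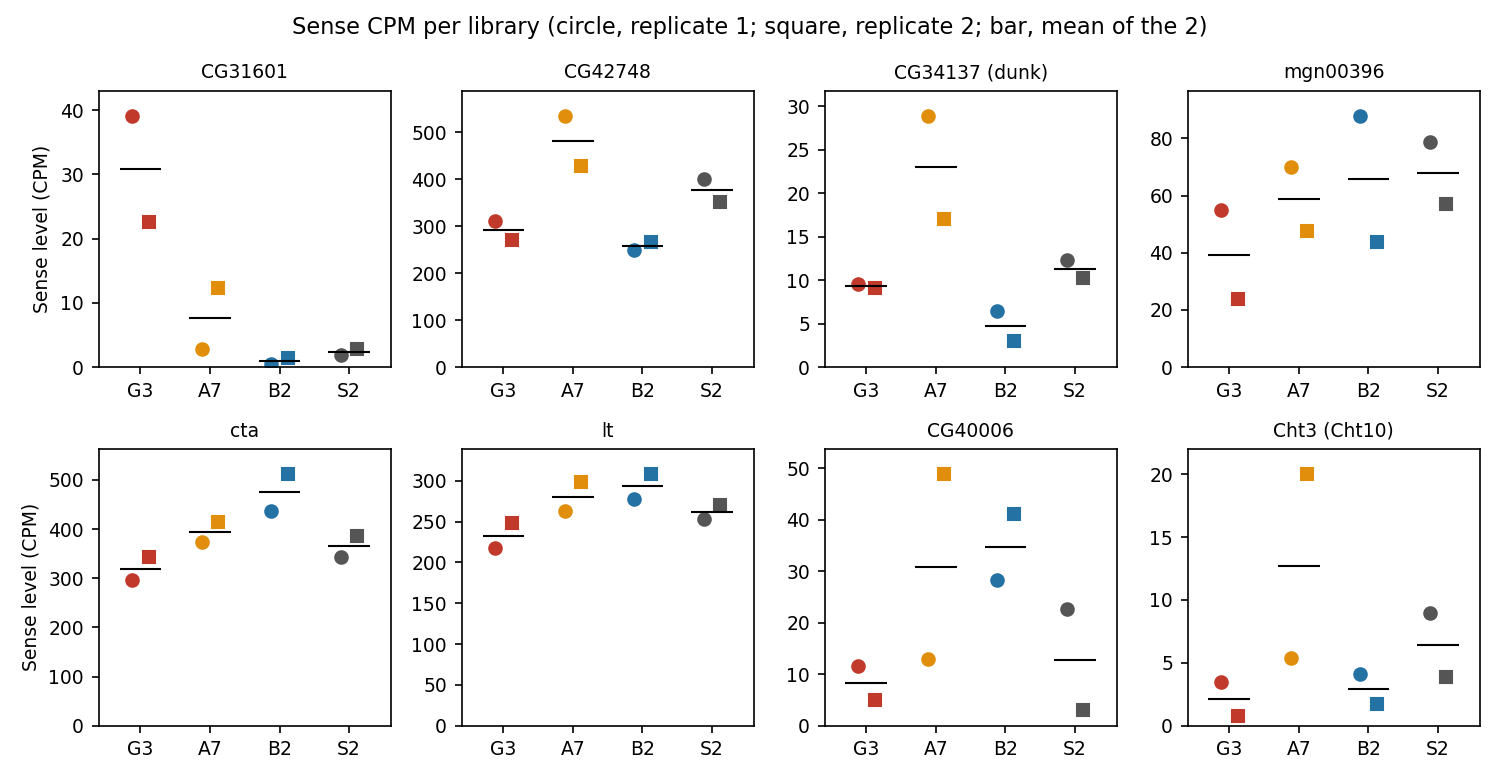
Sense CPM of 8 members in each library of G3, A7, B2, and S2, from 0 on a linear axis. Circles are replicate 1, squares replicate 2, and bars the mean of the 2. *CG31601* is at 39.2 and 22.5 CPM in G3 and at most 12.4 CPM elsewhere, *CG42748* and *CG34137* are highest in A7, *cta* and *lt* have their lowest means in G3 and their highest in B2, and *CG40006* and *Cht3* have 2 widely separated libraries in some lines.

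*cta* and *lt*, from 22874464 to 22885773 and from 22811928 to 22833640, had their lowest mean levels in G3 and their highest in B2. *cta* had 297 and 342 CPM in G3, 374 and 415 in A7, 437 and 512 in B2, and 343 and 387 in S2. *lt* had 217 and 248 CPM in G3, 263 and 298 in A7, 278 and 308 in B2, and 253 and 270 in S2. For both genes the G3 libraries were below both S2 libraries and the B2 libraries above both, whereas the A7 libraries overlapped S2. The log2FC of *lt* was −0.17 ± 0.14 for G3, 0.10 ± 0.14 for A7, and 0.16 ± 0.14 for B2 (edgeR adjusted p = 0.752, 0.890, and 0.999), with 95% confidence intervals of −0.49 to 0.15, −0.22 to 0.42, and −0.16 to 0.49. That of *cta* was −0.19 ± 0.15, 0.11 ± 0.15, and 0.38 ± 0.15 (adjusted p = 0.737, 0.882, and 0.999), with intervals of −0.53 to 0.15, −0.23 to 0.46, and 0.04 to 0.72. The intervals of *lt* exclude a 2-fold change in each line, as do those of *cta*.

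Between mutant lines, *cta* was lower in G3 than in B2 with the block, with a log2 difference of −0.57 ± 0.09 (edgeR adjusted p = 0.0140), and not called without it (adjusted p = 0.242). This call was lost when G3 replicate 1, B2 replicate 1, or B2 replicate 2 was left out (adjusted p of at most 0.192). *lt* differed in the same direction, by −0.33 ± 0.10 with the block, and was not called (adjusted p = 0.110).

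The fitted values of *CG17018* and *Tif-IA* were above S2 in each line. *CG17018*, from 22311845 to 22368711, is named *Marf1* in RefSeq, encodes an RNA-binding protein of oocyte meiosis, and was the member with the most reads. It had 1520 and 1319 CPM in G3, 1488 and 1450 in A7, 1693 and 1620 in B2, and 1328 and 1127 in S2. *Tif-IA*, from 22249866 to 22258260, had 228 and 234 CPM in G3, 240 and 244 in A7, 268 and 298 in B2, and 184 and 222 in S2. All 6 mutant libraries were above both S2 libraries for *Tif-IA*, and 5 of 6 for *CG17018*, with G3 replicate 2 as the exception. The log2FC of *CG17018* was 0.21 ± 0.13 for G3, 0.26 ± 0.13 for A7, and 0.43 ± 0.13 for B2 (edgeR adjusted p = 0.638, 0.642, and 0.999), and that of *Tif-IA* was 0.19 ± 0.14, 0.25 ± 0.14, and 0.48 ± 0.14 (adjusted p = 0.721, 0.691, and 0.999). Few of the 9612 genes had a small p in B2, and the unadjusted p of the 2 genes there was 0.011 and 0.010. With the block the edgeR adjusted p was 0.145 and 0.181 in B2. DESeq2 with the block called both higher in B2 (log2FC 0.45 and 0.49, adjusted p = 0.0337 and 0.0390), and *CG17018* higher in the mean of the lines (0.33, adjusted p = 0.0446).

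*CycK* and *CG1832* (*Clamp*) varied little between the lines. *CycK*, from 22128264 to 22130142, had 59.1 and 61.6 CPM in G3, 62.4 and 65.3 in A7, 57.7 and 56.3 in B2, and 57.7 and 70.6 in S2. *CG1832*, from 22165966 to 22169193, had 85.2 and 91.3 CPM in G3, 91.6 and 90.01 in A7, 84.9 and 106 in B2, and 88.2 and 90.3 in S2. The log2FC of *CG1832* was −0.02 ± 0.15 for G3, 0.02 ± 0.15 for A7, and 0.09 ± 0.15 for B2 (edgeR adjusted p = 0.984, 0.981, and 0.999), with 95% confidence intervals between −0.36 and 0.44 over the 3 lines. That of *CycK* was −0.09 ± 0.14, −0.01 ± 0.14, and −0.17 ± 0.14 (adjusted p = 0.886, 0.996, and 0.999).

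*CG17490* and *CG43266* were below S2 by their fitted values in each line, and neither was called. *CG17490*, from 22430912 to 22434025, had 64.2 and 81.8 CPM in G3, 71.9 and 81.6 in A7, 85.9 and 106 in B2, and 81.6 and 124 in S2, so that the 2 S2 libraries were far apart. *CG43266*, a long noncoding RNA in RefSeq listed from 22735486 to 22736325, had 4.43 and 6.80 CPM in G3, 4.44 and 6.28 in A7, 6.84 and 8.13 in B2, and 8.70 and 8.29 in S2, with all 6 mutant libraries below both S2 libraries. The log2FC of *CG43266* was −0.62 ± 0.31 for G3, −0.68 ± 0.31 for A7, and −0.19 ± 0.31 for B2 (edgeR adjusted p = 0.550, 0.609, and 0.999). That of *CG17490* was −0.49 ± 0.24, −0.42 ± 0.24, and −0.10 ± 0.24 (adjusted p = 0.517, 0.708, and 0.999), and in B2 it was above 0 without S2 replicate 2 (0.26) or B2 replicate 1 (0.04).

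Near the end of the window, *mgn00396* and *Cht3* overlap each other. *Cht3*, named *Cht10* in RefSeq, encodes a chitinase, an enzyme that breaks down chitin, and *mgn00396* has no annotation in the tables used here. *mgn00396*, from 22887745 to 22901596, had 54.9 and 23.9 CPM in G3, 70.1 and 47.5 in A7, 88.0 and 43.7 in B2, and 78.6 and 57.0 in S2. Replicate 2 was lower than replicate 1 in each of the 4 lines. With this shared difference in the model as a block, the log2FC in G3 was −0.84 ± 0.18 and the gene was called lower (edgeR adjusted p = 0.0326), whereas without the block it was −0.77 ± 0.46 (adjusted p = 0.638). The call was made in 4 of 8 fits with 1 library left out, and was lost without G3 replicate 2, either B2 library, or S2 replicate 2 (adjusted p of at most 0.167). In A7 and B2 the log2FC was −0.20 ± 0.46 and −0.04 ± 0.46.

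*Cht3*, from 22892304 to 22918686, had 3.44 and 0.777 CPM in G3, 5.38 and 20.0 in A7, 4.13 and 1.71 in B2, and 8.93 and 3.88 in S2. A7 replicate 1 was between the 2 S2 libraries and A7 replicate 2 above both, and leaving out A7 replicate 2 turned the log2FC in A7, which was 0.94 ± 0.81 (edgeR adjusted p = 0.823), to −0.26. *CG40006*, from 22515149 to 22649081, was as variable, with 11.6 and 5.05 CPM in G3, 12.9 and 48.8 in A7, 28.3 and 41.1 in B2, and 22.6 and 3.00 in S2. Its log2FC in A7, 1.19 ± 0.89 (adjusted p = 0.792), was −0.03 without A7 replicate 2, and its log2FC in G3, −0.61 ± 0.93 (adjusted p = 0.876), was 1.52 without S2 replicate 1. In B2 it was 1.38 ± 0.89 (adjusted p = 0.999), with both libraries above both of S2.

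The remaining 14 members were not called against S2 in any line. They are *CG17494*, named *Slmap* in RefSeq and a part of the STRIPAK phosphatase complex that acts on Hippo signalling, *Spf45*, a splicing factor, *CG3262*, named *Nubpl* and known in humans for the assembly of mitochondrial complex I, *tio*, *Ir40a*, *CG3651*, *CG3635*, *CG17493*, *CG17715*, *CG40439*, *mgn00129*, *mgn00391*, *mgn00393*, and *mgn00397*. Their log2FC lay between −0.62 (*Ir40a*) and 0.39 (*mgn00391*) in G3, between −0.34 (*mgn00397*) and 0.94 (*tio*) in A7, and between −2.22 (*tio*) and 1.05 (*mgn00397*) in B2. The extremes were genes of low level, and *tio* has libraries with 0 counts in B2 and S2, so that its fitted value there is no measure of size. *CG17715* had 204 and 198 CPM in G3, 223 and 227 in A7, 268 and 274 in B2, and 208 and 216 in S2, and its log2FC in B2 was 0.35 ± 0.11 (edgeR adjusted p = 0.999, unadjusted p = 0.015). *Spf45* had 32.2 and 33.0 CPM in G3, 35.8 and 45.9 in A7, 40.0 and 48.0 in B2, and 37.7 and 40.8 in S2, so that only the G3 libraries were separated from both S2 libraries.

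Differences between the mutant lines were tested in the same fit. Without the block, 0 of 28 members were called between G3 and A7, where 0.208% of all genes were, 0 between G3 and B2, where 0.239% were, and 0 between A7 and B2, where 0.291% were, with 5 members at an unadjusted p under 0.05 in each pair, where 6.97%, 8.39%, and 8.36% of all genes were. DESeq2 called 1, 1, and 3, where it called 1.01%, 1.58%, and 1.94% of the genes it tested. DESeq2 with the block called 4 members in each pair, where 3.41%, 4.29%, and 4.7% were called, and these included *Cht3* in both pairs with A7, and *CG17715* and *mgn00396* between G3 and B2. With the block, edgeR called 2 members in each pair, where 2.99%, 3.85%, and 3.9% of all genes were called, namely *CG34137* and *CG42748* between G3 and A7, *CG31601* and *cta* between G3 and B2, and *CG34137* and *CG42748* between A7 and B2. Since *CG34137* lies within *CG42748*, the calls of these genes may not be independent. The log2 difference was above 0 for 4 of 28 members in G3 against A7, where it was for 48.7% of all genes, for 8 in G3 against B2, where it was for 48.1%, and for 12 in A7 against B2, where it was for 49.5%.

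Reads antisense to the listed genes made up between 8.59% and 10.95% of a library. Among the members, antisense reads were the larger part for *Cht3* (87.6%), *Ir40a* (72.4%), *CG3262* (64.8%), and *tio* (51.3%). The listed extents of these 4 genes overlap another gene, but other overlapping members had few antisense reads, such as *CG34137* (1.28%) and *CG17493* (1.85%). The part of overlap in these shares was not tested. All 28 members were among the 12610 genes tested on this strand, and 0 were called in edgeR's test in G3, A7, or B2, where 0.444%, 0.293%, and 0.0634% of all genes were, with 2, 5, and 3 at an unadjusted p under 0.05, where 2.99%, 3.4%, and 3.48% of all genes were. With the block, 3 were called in each line, where 1.95%, 2.09%, and 1.51% of all genes were. Antisense counts per library lay between 445550 and 1235268, so genes with very few antisense reads passed the filter of 1 CPM. *CG31601*, for example, had 9 over all libraries. The shares over all genes include such genes, which limits their use as a reference for the members. In G3 these were *CG3635*, higher, and *CG40006* and *Cht3*, lower. In A7 they were *CG3635*, higher, and *CG17494* and *CG40006*, lower. In B2 they were *Spf45*, higher, and *tio* and *CG42748*, lower. Directions are those of the fit without the block. The median antisense log2FC of the members in that fit was −0.52, −0.14, and −0.27, against −0.15, −0.16, and −0.18 over all genes.

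Among these calls, that of *Spf45* in B2 had the lowest adjusted p. Antisense counts of *Spf45* numbered 38 and 5 in G3, 31 and 12 in A7, 84 and 28 in B2, and 20 and 7 in S2. Without the block, the log2FC in B2 was 2.30 (edgeR adjusted p = 0.463), and with the block the adjusted p was 0.000114. Those of *CG3635* were called higher with the block in G3 (edgeR adjusted p = 0.00330) and A7 (adjusted p = 0.0110), and not in B2 (adjusted p = 0.317). Without the block, its log2FC in these lines was 1.16, 1.19, and 0.84, and none was called. *CG3635* antisense counts numbered 320 and 90 in G3, 419 and 60 in A7, 262 and 25 in B2, and 143 and 32 in S2. The antisense calls that were lower had log2FC, in the fit without the block, between −3.48 (*tio* in B2, with 2 and 0 counts) and −0.86 (*Cht3* in G3). Their edgeR adjusted p with the block was between 0.00607 (*CG42748* in B2) and 0.0494 (*CG40006* in A7). *CG40006* antisense counts numbered 63 and 11 in G3, 59 and 15 in A7, 49 and 22 in B2, and 182 and 12 in S2. Its 2 lower calls thus rest on S2 replicate 1, since in replicate 2 neither G3 nor A7 was clearly below S2. Left-out libraries were not tried on this strand.

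The genes that encode heterochromatin proteins were examined as a list for context, which included the edited gene, *CG9007*. It also held genes of low level, such as *piwi* and *HP6*, with means of 0.767 and 2.57 CPM. Of 20 genes, 19 were listed and tested, and 0 were called in G3, A7, or B2, with or without the block. Of all genes, 0.603%, 0.375%, and 0.0104% were called in these lines without the block. With it, 5.87%, 3.67%, and 0.427% were. Their median log2FC was −0.05 for G3, −0.07 for A7, and 0.00 for B2. The gene of HP1a had a log2FC of −0.16 for G3, −0.07 for A7, and −0.34 for B2 (edgeR adjusted p = 0.916, 0.972, and 0.999), and *Su(var)3-9*, which encodes an H3K9 methyltransferase, had 0.01, 0.11, and 0.04 (adjusted p = 0.995, 0.882, and 0.999).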

How the data were processed

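Nascent-RNA-seq data came from 8 libraries of the lines G3, A7, B2, and S2. The 4 ChIP-seq libraries of embryos were not used. The authors trimmed adaptors, aligned reads to dm3, kept those with a single alignment, and deposited sense and antisense counts per gene, not normalized and not pooled. The submitters' processing notes name Bowtie 0.12.7 and bedtools; the counting program, and whether introns were counted, are not given in the sources used here. Columns of the second series, which carry another number, were taken as replicate 2.

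The analysis used R 4.3.3 and edgeR 4.0.16. A gene was kept where 2 or more libraries reached 1 CPM of the library total before normalization. TMM factors and a quasi-likelihood model with a coefficient per line were fitted to all 8 libraries, with Benjamini-Hochberg adjustment over all genes tested and a threshold of 0.05. SEs were taken from the F statistic. The deviations from the line means correlated between libraries with the same number in all 12 pairs (r between 0.50 and 0.64). With 2 libraries per line, the replicate 1 pair and the replicate 2 pair of any 2 lines give the same r, so the 12 are not separate values. The numbers, which come from the labels, were taken to pair the libraries. The fit with this number as a replicate block is given beside the calls it changed. DESeq2 1.42.0, other scalings, filters, windows, and left-out libraries were alternatives. The scripts were tested on simulated data.

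The members and gene lists were chosen with earlier results of these data known. Genes described in full were those called in any line or in the mean of the lines, those with the 3 highest or 3 lowest log2FC in a line among members with a mean of at least 5 CPM, the 5 with the highest mean CPM, the 5 with the highest CPM per kb, the 5 with the lowest p in the mean of the lines, and *lt* and *cta*. *CG17715*, *Spf45*, *CG3635*, and the heterochromatin genes named were chosen after their values were seen. Names came from RefSeq, which matched 23 of the 28 members; its build differs from dm3, so none of its coordinates were used. Antisense counts were analyzed in the same way.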

Additional observations from a re-analysis of the deposited data

Results flagged for a closer look

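The members *CG34137*, *CG42748*, *CG31601*, and *cta* differed between mutant lines in the fit with the replicate block. They gave 6 calls in direct contrasts of 2 mutant lines. S2 is not compared in these, but its libraries were part of the fit that set the spread and the block. *CG34137* was lower in G3 than in A7 (log2 difference −1.31) and higher in A7 than in B2 (2.23), and *CG42748*, in which it lies, was lower in G3 than in A7 (−0.72) and higher in A7 than in B2 (0.89). The calls of these overlapping genes may not be independent. *CG31601* was higher in G3 than in B2 (5.21), and *cta* was lower in G3 than in B2 (−0.57). None of the 6 was called by edgeR without the block. DESeq2 without the block called 4 of them, *CG42748* between G3 and A7, *CG31601* between G3 and B2, and *CG34137* and *CG42748* between A7 and B2, and edgeR with no filter beyond 1 count called 3, all of these but the first. With 2 libraries per line, a single library apart from the rest of its line could not be tested for.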

How the results depend on the processing

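Counts of members called depended on the test and the block, and the direction of each median of the members held except in B2 and in the mean of the lines, where it was near 0. With the replicate block, the calls were 2 in G3, 1 in A7, 2 in G3 against A7, 2 in G3 against B2, and 2 in A7 against B2, and the B2 median was 0.016. DESeq2 gave 1 in G3, 1 in G3 against A7, 1 in G3 against B2, and 3 in A7 against B2. DESeq2 with the block, added after seeing the data, gave 2 in G3, 3 in B2, 1 in the mean of the lines, and 4 in each pair of mutant lines. Without a filter beyond 1 count, the calls were 1 in G3, 1 in G3 against B2, and 3 in A7 against B2, and the B2 median was −0.048. A window of 2 Mb gave 4 calls for G3, 2 for A7, and 1 for B2. Of all genes, 0.603%, 0.375%, and 0.0104% were called in these lines. The calls were all of genes outside the last 1 Mb, in the adjacent Mb, where 67 genes were tested. The A7 median in this window was 0.042. A window of 0.5 Mb gave medians of 0.23 in B2 and 0.067 in the mean of the lines. Scaling by library size alone gave medians of −0.30 in G3, −0.12 in B2, and −0.11 in the mean of the lines; it moved the median of all genes to −0.18 in G3 and −0.13 in B2, and relative to all genes the members were at −0.12 for G3, 0.15 for A7, and 0.01 for B2, against −0.12, 0.16, and 0.01 with TMM. When 1 library at a time was left out, the calls were between 0 and 1 in G3 and in G3 against B2 and 0 in the other comparisons, and the medians lay between −0.21 and −0.10 in G3, 0.023 and 0.16 in A7, −0.082 and 0.11 in B2, and −0.055 and 0.034 in the mean of the lines. The members above 0 in A7 numbered 15 without A7 replicate 2, against 21 with all libraries, and those above 0 in G3 numbered 9 without S2 replicate 1, against 4. Of 882 values of the 14 genes described in full under the alternatives, 41 changed sign. The cause of these changes was not tested. The libraries labelled replicate 2 had fewer counts, which limits the members under about 1 CPM most.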
